A study of Mus musculus with 21 samples.

Results

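The response of R1 cardiac macrophages to CAWS was measured by RNA sequencing in 6 of the series' 21 libraries, 3 of CAWS-challenged and 3 of naive mice, taken by the population and treatment that their labels give. R1 cells are macrophages of the heart that were sorted as Ccr2-negative and MHC-II-low from C57BL/6 mice, and RNA was taken from the freshly sorted cells. CAWS, the water-soluble complex of Candida albicans, is prepared from a yeast and causes inflammation of the coronary arteries in mice, for which it serves as a model of Kawasaki disease. The naive mice were not challenged, and no transgene, deletion or other agent is named for either group. Each library came from a separate pool of mice, per the series design, so the replicate is a pool. For the dose, the time after CAWS and the animals' age and sex, the sources used here give nothing. The other libraries are of R2 cells, sorted as MHC-II-high without Ccr2, and of R3 cells, MHC-II-high with Ccr2, from the same pools and Ccr2-positive splenic monocytes of naive mice, 3 libraries a group.

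Ccr2-negative cardiac macrophages are long-lived cells seeded largely before birth, which renew themselves in place, clear dying cells and support vessels. Lyve1, a hyaluronan receptor, and Timd4, a receptor for dying cells, mark them. Ccr2, the receptor for the chemokine Ccl2, marks cells that came more recently from blood monocytes. MHC class II molecules present peptides to CD4 T cells and are low in R1 by the sort.

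Total counts ran from 14140007 to 18980257 in the naive R1 libraries and from 16484940 to 18970444 in the CAWS R1 libraries. Levels are given as CPM, counts scaled by library totals adjusted by TMM, and a difference is a log2 fold change (CAWS over naive) with its standard error. Of 13275 genes tested, 1187 (8.94%) passed the threshold of adjusted p under 0.05. In CAWS, 806 (6.07%) were higher and 381 (2.87%) lower, and 319 of the rises and 52 of the falls were at least 2-fold. No overlap between the 3 naive and 3 CAWS libraries was found in 3788 of the 13275 genes. The genes named for the largest folds were chosen from these, so their lack of overlap was set by that choice. The median log2 fold change over all tested genes was 0.03, which TMM scaling sets near 0 by construction. On the first principal component of the 6 libraries, which held 40.6% of the variance, the naive libraries lay between -57.7 and -12.0 and the CAWS libraries between 30.4 and 37.3. Naive library 2 lay farthest out, and results that rest on 1 library are marked as such.

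**Figure D1:**
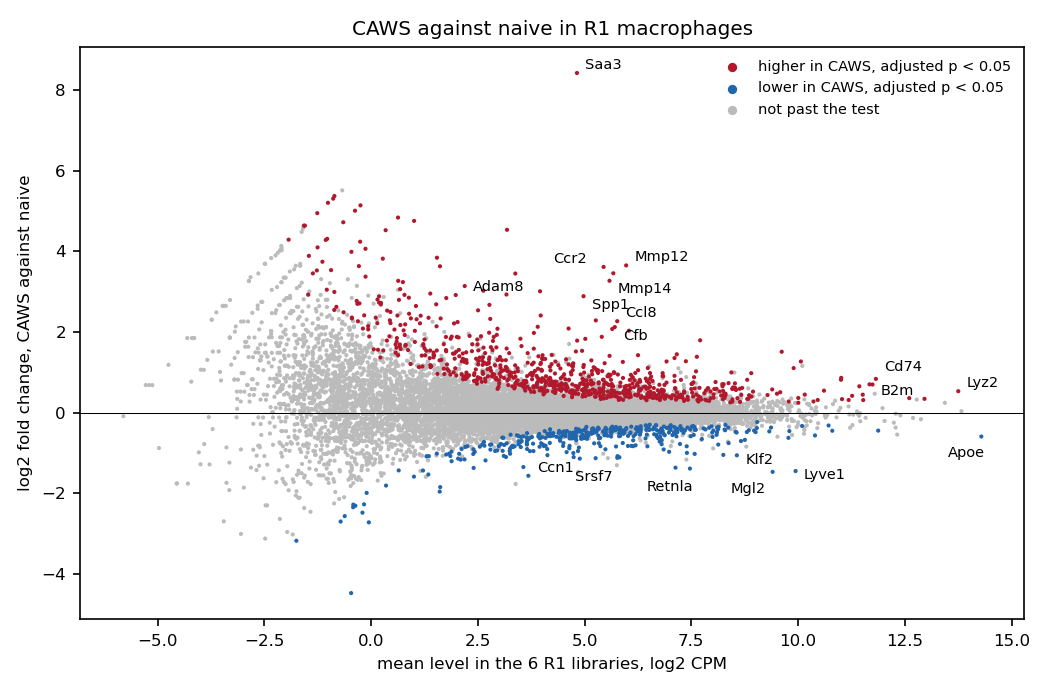
Log2 fold change (CAWS over naive in R1, vertical axis) against mean expression (log2 CPM of the 6 R1 libraries, horizontal axis) for 13132 genes, 1 point each; 143 tested genes with no count in naive R1 or in CAWS R1 are not drawn. Coloured points are the 806 higher and 381 lower genes at adjusted p under 0.05, less those not drawn, and the named rises reach farther from 0 than the named falls.

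The 4 largest rises among genes above a mean log2 CPM of 4 in CAWS, with no overlap between groups, were Saa3, Mmp12, Ccr2 and Itgax. They were chosen for that rise, and the 250 bases before 1 transcription start of each are printed, from RefSeq's promoter table of GRCm38.p6, which holds 1 start a gene. The gene spans given further on cover all starts, so the Ccr2 and Saa3 windows lie within the gene's span and the Itgax window overlaps its first bases. Letters run 5′ to 3′ on the gene's strand, and capitals mark matches to searched motifs on either strand.
Saa3: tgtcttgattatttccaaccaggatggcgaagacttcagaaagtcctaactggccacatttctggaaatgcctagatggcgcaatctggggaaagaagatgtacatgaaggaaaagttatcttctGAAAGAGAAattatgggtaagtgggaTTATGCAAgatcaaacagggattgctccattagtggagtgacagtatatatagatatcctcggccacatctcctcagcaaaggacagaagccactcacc
Mmp12: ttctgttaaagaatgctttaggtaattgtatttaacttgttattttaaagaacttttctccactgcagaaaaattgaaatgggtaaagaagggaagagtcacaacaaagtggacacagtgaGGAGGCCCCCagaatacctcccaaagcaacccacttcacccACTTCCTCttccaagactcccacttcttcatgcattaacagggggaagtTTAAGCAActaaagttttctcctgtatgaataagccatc
Ccr2: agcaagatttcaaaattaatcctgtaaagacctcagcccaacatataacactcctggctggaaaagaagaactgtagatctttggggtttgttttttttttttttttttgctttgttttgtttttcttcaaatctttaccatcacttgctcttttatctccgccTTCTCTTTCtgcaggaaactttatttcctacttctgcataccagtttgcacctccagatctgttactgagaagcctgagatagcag
Itgax: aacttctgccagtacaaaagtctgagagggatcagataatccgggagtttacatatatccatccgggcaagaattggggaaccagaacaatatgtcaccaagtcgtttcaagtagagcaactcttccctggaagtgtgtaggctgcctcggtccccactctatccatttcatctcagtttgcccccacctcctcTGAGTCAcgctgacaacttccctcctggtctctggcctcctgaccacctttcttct
The windows lie at chr7:46715677-46715926 on the minus strand (Saa3), chr9:7344147-7344396 on the plus strand (Mmp12), chr9:124101933-124102182 on the plus strand (Ccr2) and chr7:128129300-128129549 on the plus strand (Itgax). The search used C/EBP (TTGCNNAA), AP-1 (TGANTCA), ISRE (GAAANNGAA), the STAT element GAS (TTCNNNGAA), PU.1 (GAGGAAGT) and the NF-kB consensus. Saa3 held a C/EBP match at -99 to -92 and an ISRE match at -125 to -117, counted from the start. Mmp12 held an NF-kB match at -129 to -120, a PU.1 match at -88 to -81 and a C/EBP match at -39 to -32. Ccr2 held an ISRE match at -86 to -78 and Itgax an AP-1 match at -56 to -50. No 2 of the 4 windows held the same set of motifs.

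The same search over 10203 tested genes with a promoter entry set these matches against the background. PU.1, the factor that macrophage genes share, was matched in 2.8% of all windows, in 5.2% of the 610 windows of genes higher in CAWS and in 1.6% of the 305 windows of genes lower in CAWS. ISRE, the element of interferon-responsive promoters, was matched in 6.5%, 10.5% and 6.6% of these windows. NF-kB was matched in 8.7%, 11.8% and 7.2%, and AP-1 in 4.3%, 6.6% and 3.6%. C/EBP was matched in 7.5%, 9.5% and 10.2%, and the STAT element in 5.9%, 6.7% and 7.5%. These shares are descriptions of letters in a window and were not tested.

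Saa3, an acute-phase apolipoprotein made by inflamed macrophages (gene ID 20210, chromosome 7, 46711998 to 46719615), had 0.0495, 0 and 0.467 CPM in the naive libraries 1, 2 and 3. In the CAWS libraries it had 38.8, 60.3 and 69.9 CPM. Every CAWS library stood far above every naive library, with the naive values at a few reads. The log2 fold change was 8.43 ± 0.75 (adjusted p = 1.3e-07), and because the naive level is near 0 its size moved to 10.6 without naive library 3.

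Several proteases that cut extracellular matrix were among the largest rises. Mmp12, the macrophage elastase (gene ID 17381, chromosome 9, 7344397 to 7360461), had 9.40, 13.4 and 4.74 CPM in naive and 124, 124 and 102 CPM in CAWS libraries. Mmp14, a membrane-bound collagenase (gene ID 17387, chromosome 14, 54431598 to 54442456), had 8.27, 11.4 and 7.35 CPM against 83.9, 89.4 and 87.3 CPM. The groups were far apart for both, and the CAWS libraries agreed closely. The log2 fold changes were 3.65 ± 0.28 (adjusted p = 1.3e-07) and 3.27 ± 0.19 (adjusted p = 6.21e-10). Adam8, a leukocyte sheddase, had 3.32, 2.92 and 4.07 CPM in naive and 27.2, 28.4 and 27.2 CPM in CAWS libraries (3.01 ± 0.24, adjusted p = 1.05e-07). Of 23 tested matrix proteases and inhibitors, 8 rose and 1 fell, with a median log2 fold change of 0.77. The sheddase Adam15 was the 1 fall (-0.38 ± 0.10, adjusted p = 0.016), lost without CAWS library 2 (0.0645), CAWS library 3 (0.071) or naive library 3 (0.0654). With 1 library left out, 5 to 7 rose, 5 without CAWS library 2 or naive library 2.

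Ccr2 was followed because the sort used its protein. Its RNA (gene ID 12772, chromosome 9, 124101918 to 124109140) had 5.39, 8.94 and 5.41 CPM in naive R1 and 79.4, 122 and 40.6 CPM in CAWS R1. All CAWS libraries were above all naive libraries, and CAWS library 3 was lowest and library 2 highest. The log2 fold change was 3.62 ± 0.35 (adjusted p = 6.87e-06). Ccr2-positive cells held far more, with a mean of 2390 CPM in naive R3 and 3262 CPM in the monocytes, and Ccr2-negative R2 cells held 29.3 CPM in naive and 206, 266 and 221 CPM in CAWS libraries. Itgax, which encodes CD11c, an integrin of dendritic cells and of activated macrophages (gene ID 16411, chromosome 7, 128129526 to 128150657), had 13.5, 6.08 and 5.21 CPM in naive and 78.3, 119 and 83.7 CPM in CAWS R1. The groups did not overlap, as its choice required, and CAWS library 2 was highest (3.46 ± 0.27, adjusted p = 1.3e-07).

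Some markers of other leukocytes rose as well. Their counts stand beside 6.07% higher and 2.87% lower over all tested genes. Of 19 classical monocyte markers, 8 rose and 0 fell (median 1.51), among them Ccr2 itself, Clec4e and the integrin Itgb7, and 6 to 8 rose with 1 library left out. Their summed level was 235 to 325 CPM in naive and 520 to 969 CPM in CAWS R1, against means of 3698 CPM in naive R3 and 21710 CPM in the monocytes. Ccr2 is part of that sum. Without it, the sum was 226 to 320 CPM in naive and 480, 544 and 847 CPM in CAWS libraries 3, 1 and 2, the order of Ccr2. Ly6c2, the defining antigen of classical monocytes, was near 0 in all 6 libraries, at most 0.697 CPM (CAWS library 2) against 863 CPM in the monocytes. Of 9 tested NK and cytotoxic markers, 7 rose and 0 fell, and 2 to 6 rose with 1 library left out, 2 without CAWS library 2 and 4 without naive library 2. Their median was 3.99, or 2.92 with the 2 genes without a naive count at their bound. The cytotoxic protease Gzma had no naive R1 count and 2.63, 8.24 and 1.32 CPM in CAWS R1, at least 69.5-fold higher, taking 3 counts over the naive group as the floor. Without CAWS library 2 the bound was 33.8-fold, and Gzma missed the threshold in a fit of the 2 groups alone (0.105). The NK sum was 1.06 to 3.07 CPM in naive and 12.9 to 40.4 CPM in CAWS libraries, again highest in library 2. Of 6 tested T cell markers, 2 rose, the kinase Lck (no naive count; 0.736, 2.38 and 0.762 CPM in CAWS libraries) and the interleukin-7 receptor Il7r (0.396, 0.372 and 0 CPM against 1.95, 2.26 and 1.68 CPM), and the list summed to 29.6 to 35.4 CPM in naive and 37.2 to 45.7 CPM in CAWS libraries. Of 9 markers of mast cells, basophils and eosinophils, 3 rose (median 2.12), the chymase Cma1, the receptor Kit and the lectin Siglecf, each at most 2.79 CPM. Without CAWS library 2 or naive library 1, 0 of these passed, and 1 without CAWS library 1 or naive library 2. Of 16 nonclassical monocyte markers, 3 rose, Spn, Fabp4 and Gngt2, and Klf2 fell, and their sums overlapped (2188 to 2456 and 1978 to 2959 CPM). The Gngt2 call (adjusted p = 0.0136) was lost in a fit of the 2 groups alone (0.205) and without CAWS library 2 (0.104) or naive library 2 (0.0556) or 3 (0.0731). B cell sums were 574 to 611 CPM in naive and 646 to 806 CPM in CAWS libraries. There 0 of 7 passed edgeR's test, 0 at unadjusted p under 0.05 and 0 by DESeq2 or limma voom. Red cell and platelet sums were 856 to 950 and 592 to 610 CPM. There 0 of 9 passed edgeR's test, 1 at unadjusted p under 0.05, 0 by DESeq2 and 1 by limma voom. That list holds Pf4, also listed as a resident cardiac macrophage marker, which changed by -0.60 on the log2 scale. Of its 9 values, 6 were above 0 (median 0.04 with 3 genes at their bound), so the lower sum is no fall of the whole list. The members of these small counts were named after their values were seen. In such bulk samples more cells of a type and more RNA per cell cannot be told apart, and the part of admixed cells in the rises of Ccr2, Itgax and their neighbours was not tested.

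Conventional dendritic cell markers numbered 21, of which 7 rose and 0 fell, and 2 or 3 rose without CAWS library 1 (2) or 2 (2) or naive library 1 (3), 2 (2) or 3 (2). Their median log2 fold change was 0.83, or 0.63 with 3 genes at their bound. Their summed level did not rise with them: it was 757 to 827 CPM in naive and 655 to 716 CPM in CAWS libraries. The lectin Cd209a had 1.44, 1.61 and 2.20 CPM in naive and 19.7, 27.5 and 9.90 CPM in CAWS libraries, against a mean of 299 CPM in naive R3. Its rise (3.45 ± 0.88, adjusted p = 0.0231) was lost with limma voom (adjusted p = 0.227), without CAWS library 1 (0.0525) or 2 (0.0879), and without naive library 1 (0.0807), 2 (0.0738) or 3 (0.0659). Itgb7 had 11.1, 7.95 and 8.88 CPM in naive and 32.6, 64.5 and 23 CPM in CAWS libraries (2.09 ± 0.44, adjusted p = 0.00732), a call lost in limma voom (0.0789) and in a fit of the 2 groups alone (0.079). Fgr, a myeloid Src-family kinase, had 17, 12.6 and 8.95 CPM against 47.5, 103 and 41.2 CPM (2.29 ± 0.28, adjusted p = 6.22e-05), a call lost with only the compared groups (0.0765). In all 3 genes CAWS library 2 was highest. Heart muscle markers rose in 8 of 21, such as cardiac actin Actc1 (1.03 ± 0.24, adjusted p = 0.00765), but in 1 without naive library 2, 2 without CAWS library 3, 3 without naive library 3, 4 without CAWS library 2 and 0 without both replicates numbered 2. Their sum overlapped between the groups, 266 to 299 CPM in naive and 287 to 360 CPM in CAWS libraries. Neutrophil markers rose in 1 of 12, the G-CSF receptor Csf3r (0.65 ± 0.12, adjusted p = 0.00119), and overlapped in sum (230 to 350 and 222 to 346 CPM), and Ly6g, Camp, Ngp and Elane had no count in any R1 library. For neutrophil and fibroblast markers the counts lay near the 6.07% of all tested genes that rose. Fibroblast markers rose in 1 of 16 and summed to 332 to 380 CPM in naive and 519 to 527 CPM in CAWS libraries. The 1 rise, and most of that sum, was Gsn, an actin-severing protein that macrophages also express, which had 333, 316 and 301 CPM against 470, 480 and 481 CPM (0.59 ± 0.13, adjusted p = 0.0071).

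**Figure D2:**
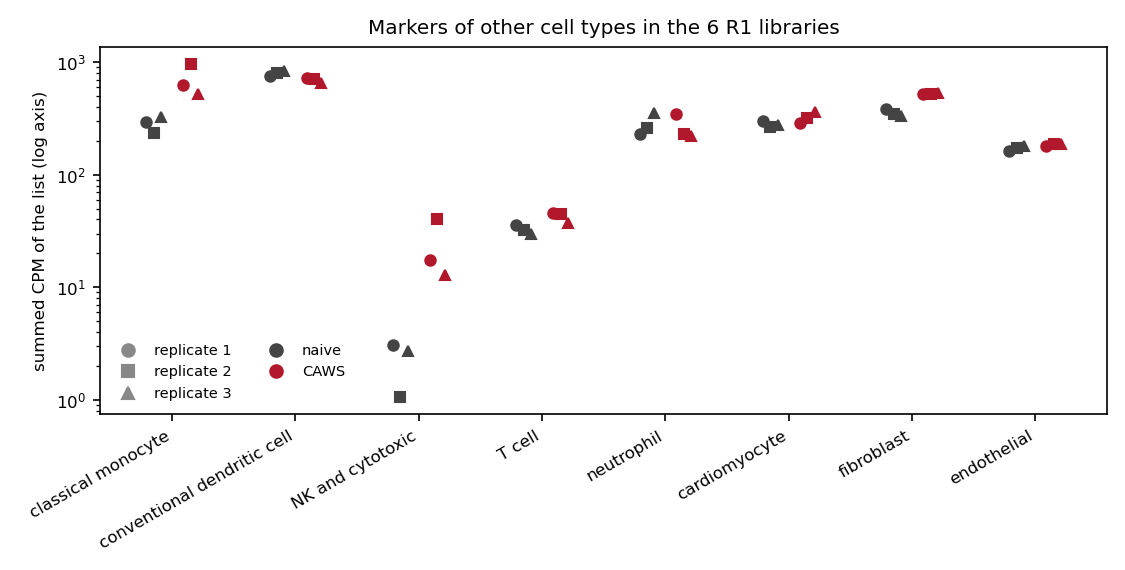
Summed CPM (log axis) of 8 marker lists in the 3 naive and 3 CAWS R1 libraries, 1 point per library and list. Classical monocyte sums separate (235 to 325 against 520 to 969 CPM), as do NK sums (1.06 to 3.07 against 12.9 to 40.4 CPM), while heart muscle and neutrophil sums overlap.

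Genes that mark macrophages at large changed little. Of 20 macrophage core genes, 3 rose and 0 fell, with a median log2 fold change of 0.14, and 0 passed without CAWS library 2 or naive library 3 and 1 without each other library. Csf1r, the M-CSF receptor, had 7931, 8167 and 7725 CPM in naive and 7725, 6583 and 6953 CPM in CAWS libraries (-0.16 ± 0.09, adjusted p = 0.307). Cx3cr1, the fractalkine receptor, overlapped as well, with 1019 ± 152 and 1061 ± 85.5 CPM (SD, n = 3; adjusted p = 0.842). Itgam, the integrin CD11b, was at 743 ± 28.3 and 890 ± 26.0 CPM without passing the test (adjusted p = 0.252), although it passed with only the compared groups (0.0354). Adgre1, the F4/80 antigen, rose from 2074 ± 100 to 2579 ± 68.9 CPM (0.31 ± 0.09, adjusted p = 0.039), a call lost whichever of the 6 libraries was left out (0.0854 to 0.173). Ptprc, the leukocyte antigen CD45, rose from 633 ± 59.0 to 899 ± 88.0 CPM (0.51 ± 0.12, adjusted p = 0.0102), and lost its call without CAWS library 2 (0.0675) or naive library 3 (0.0598).

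Among markers of the resident state, 2 of 22 fell. Lyve1 (gene ID 114332, chromosome 7, 110850607 to 110862953) had 1460, 1296 and 1562 CPM in naive and 589, 463 and 528 CPM in CAWS libraries. All 3 CAWS values lay far below the naive range (-1.45 ± 0.31, adjusted p = 0.00732). The call held whichever single library was left out, and of the 15 alternatives it was lost when both replicates numbered 2 were left out (0.064), an alternative added after seeing the data. Timd4 had 226, 200 and 248 CPM in naive and 131, 95.9 and 110 CPM in CAWS libraries (-1.0 ± 0.25, adjusted p = 0.0174). The groups did not overlap, but the call was lost with DESeq2 (0.0677) and without CAWS library 2 (0.0782), CAWS library 3 (0.0619) or naive library 3 (0.0654). Lyve1 and Timd4 were the 2 resident cardiac macrophage markers that fell, 0 rose, and with 1 library left out 1 to 3 fell (1 without CAWS library 2 or 3 or naive library 3, and 3 without naive library 2). The list's median log2 fold change was -0.39, with 3 of 22 values above 0. Others that did not pass included the mannose receptor Mrc1 (5620 ± 76.2 and 4349 ± 450 CPM, SD, n = 3; adjusted p = 0.351), the haemoglobin scavenger receptor Cd163 (-0.38 ± 0.19, adjusted p = 0.233) and the folate receptor Folr2 (-0.52 ± 0.31, adjusted p = 0.339). With only the compared groups these 3 passed, at adjusted p = 0.00319, 0.027 and 0.000422. So did other members of the list, including Cbr2 (0.000303), Gas6 (0.00811), F13a1 (0.00867), Fcgrt (0.0114) and Clec10a (0.0175). The count of 2 falls thus depends on sharing the spread over all libraries.

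Genes of alternative activation, the program that interleukin-4 drives, split. Of 22 members, 4 fell and 0 rose, while the median was 0.25, and 2 fell without CAWS library 2, 1 without CAWS library 3 and 2 without naive library 3. The lectin Mgl2 had 947, 1102 and 935 CPM in naive and 428, 314 and 335 CPM in CAWS libraries (-1.47 ± 0.22, adjusted p = 0.000379). The eosinophil chemokine Ccl24 had 243, 273 and 252 CPM against 124, 85.4 and 83.5 CPM (-1.39 ± 0.32, adjusted p = 0.0118), and Retnla, a secreted resistin-like protein, had 144, 196 and 266 CPM against 96.6, 62.3 and 75.6 CPM (-1.37 ± 0.34, adjusted p = 0.0186). The naming rule had required that these groups not overlap. The transcription factor Klf4 was the fourth fall, with 105, 110 and 126 CPM against 68.6, 75.8 and 46.9 CPM (-0.84 ± 0.24, adjusted p = 0.0329), and lost its call with no filter (0.0683) and without CAWS library 1 (0.056) or 3 (0.143) or naive library 2 (0.0612) or 3 (0.0978). The Ccl24 call was lost without CAWS library 2 (0.0558) or 3 (0.0533), and the Retnla call without CAWS library 2 (0.0832), CAWS library 3 (0.0616) or naive library 3 (0.082). Of the 22 values, 13 were above 0. The arginase Arg1 had a log2 fold change of 3.05 and did not pass. It passed with DESeq2 (0.00886), the older fit (0.0496), only the compared groups (0.00727) and the replicate block (0.00969).

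**Figure D3:**
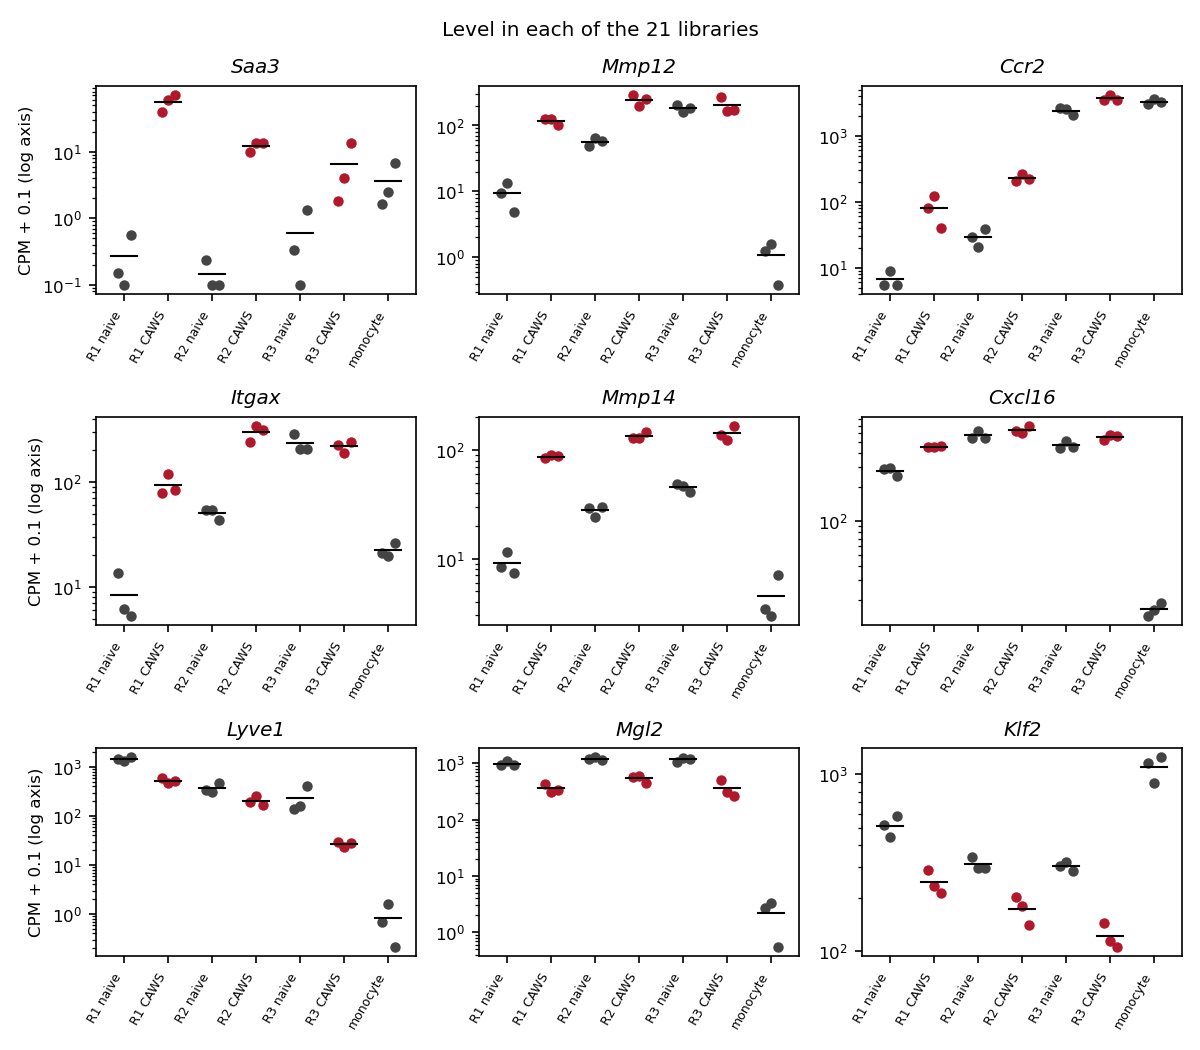
Levels of 9 genes in each of the 21 libraries (CPM + 0.1, log axis), by group, with the group mean as a line. In R1 the 3 CAWS libraries lie above the 3 naive libraries for Saa3, Mmp12, Ccr2, Itgax, Mmp14 and Cxcl16, and below them for Lyve1, Mgl2 and Klf2.

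Antigen presentation genes rose although R1 was gated as MHC-II-low. Of 14 MHC class II presentation genes, 7 rose and 0 fell (median 0.81), but 3 rose without CAWS library 1 or 2 and 2 without naive library 1 or 3. Ciita, the transactivator on which class II transcription depends, had 27.6, 31.4 and 19.6 CPM in naive and 71.6, 76.6 and 61.1 CPM in CAWS libraries (1.41 ± 0.19, adjusted p = 6.07e-05). The chains H2-Eb1 and H2-Ab1 followed with more spread: H2-Eb1 had 386, 551 and 286 CPM against 1494, 1138 and 853 CPM (1.51 ± 0.38, adjusted p = 0.0211), and H2-Ab1 had 583, 782 and 449 CPM against 1617, 1293 and 991 CPM (1.10 ± 0.29, adjusted p = 0.026). CAWS library 1 was highest for both chains, and the values stayed far below the gated MHC-II-high cells of naive R2, whose means were 11440 and 10610 CPM. The invariant chain Cd74 rose from 2597 ± 624 to 4639 ± 1373 CPM (SD, n = 3; 0.84 ± 0.22, adjusted p = 0.0246). The H2-Ab1 and H2-Eb1 calls were lost with only the compared groups (0.0978 and 0.0764) and without CAWS library 1 (0.112 and 0.0889), CAWS library 2 (0.0786 and 0.0645), naive library 1 (0.0843 and 0.0754) or naive library 3 (0.121 and 0.102). The chain H2-Aa did not pass, though it did with DESeq2 (0.0495), limma voom (0.00623) and the replicate block (0.0236). The Cd74 call was lost in a fit of the 2 groups alone (0.185), with no filter (0.0756) and without CAWS library 1 (0.153), naive library 1 (0.0857) or naive library 3 (0.128). Ifi30, the thiol reductase that opens antigens in the lysosome, had 239, 228 and 215 CPM against 359, 386 and 368 CPM (0.71 ± 0.10, adjusted p = 0.000121).

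MHC class I genes, which present cytosolic peptides to CD8 T cells, moved with little spread. Of 21 members, 10 rose and 0 fell (median 0.39), and 6 to 9 rose with 1 library left out, 6 without CAWS library 2. B2m, the light chain of class I, had 2657, 2677 and 2507 CPM in naive and 3725, 4542 and 4448 CPM in CAWS libraries (0.70 ± 0.10, adjusted p = 6.84e-05). The classical heavy chains H2-D1 (2485 ± 138 to 4043 ± 270 CPM) and H2-K1 (1488 ± 155 to 2621 ± 277 CPM, SD, n = 3) rose by 0.70 ± 0.09 and 0.82 ± 0.11. Tap1, which pumps peptides into the endoplasmic reticulum, rose by 0.71 ± 0.12 (adjusted p = 0.000477). The heavy chains H2-Q4 and H2-Q7 rose by 0.88 ± 0.11 and 1.26 ± 0.23, but class I heavy chains share sequence and reads could be split among copies. Of 25 genes that interferon-gamma induces, 12 rose and 0 fell (median 0.81), and 7 to 13 rose with 1 library left out, 7 without naive library 2. Cxcl9, a chemokine for T cells, had 3.66, 2.86 and 3.21 CPM in naive and 13.2, 10.6 and 9.90 CPM in CAWS libraries (1.78 ± 0.25, adjusted p = 0.000107). The GTPase Gbp2, which acts against intracellular microbes, had 43.2, 37.1 and 43.7 CPM against 79.2, 120 and 134 CPM (1.43 ± 0.21, adjusted p = 0.000164), and the checkpoint ligand Cd274 (PD-L1) rose by 1.24 ± 0.26 (adjusted p = 0.00398). Of 28 type I interferon-stimulated genes, 0 passed edgeR's test in either direction, also 0 at unadjusted p under 0.05 and 0 by DESeq2 or limma voom, with 14 values above 0. Whether the interferon-gamma and type I lists differed was not tested.

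Lipid-associated macrophage genes, which foam cells and scar-forming macrophages carry, rose in 15 of 30 and fell in 1 (median 0.48), and 11 to 13 rose with 1 library left out. Spp1, the secreted phosphoprotein osteopontin, had 10.2, 4.16 and 7.68 CPM in naive and 39.5, 66.9 and 60.2 CPM in CAWS libraries (2.89 ± 0.33, adjusted p = 2.2e-05). The galectin Lgals3 had 83.2, 98.8 and 98.3 CPM against 267, 371 and 334 CPM (1.79 ± 0.15, adjusted p = 1.05e-07), and the tetraspanin Cd9 had 118, 104 and 106 CPM against 233, 336 and 290 CPM (1.39 ± 0.12, adjusted p = 1.3e-07). Each group of 3 stood apart from the other, which the naming rule required for Spp1. The intermediate filament Vim rose by 1.27 ± 0.13, the lipid-sensing nuclear receptor Pparg by 1.24 ± 0.23, lipoprotein lipase Lpl by 0.98 ± 0.19 and the cholesterol exporter Abcg1 by 0.88 ± 0.16. Trem2, the lipid receptor by which such cells are often named, overlapped between the groups (186 ± 17.4 and 215 ± 11.1 CPM, SD, n = 3; adjusted p = 0.452). The 1 fall was Apoe, the apolipoprotein, with 23790, 25070 and 23430 CPM in naive and 19790, 14470 and 13690 CPM in CAWS libraries (-0.59 ± 0.17, adjusted p = 0.0372). The Apoe call was lost with no filter (0.102) and without CAWS library 2 (0.144), CAWS library 3 (0.151) or naive library 1 (0.0782), 2 (0.112) or 3 (0.0847).

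**Figure D4:**
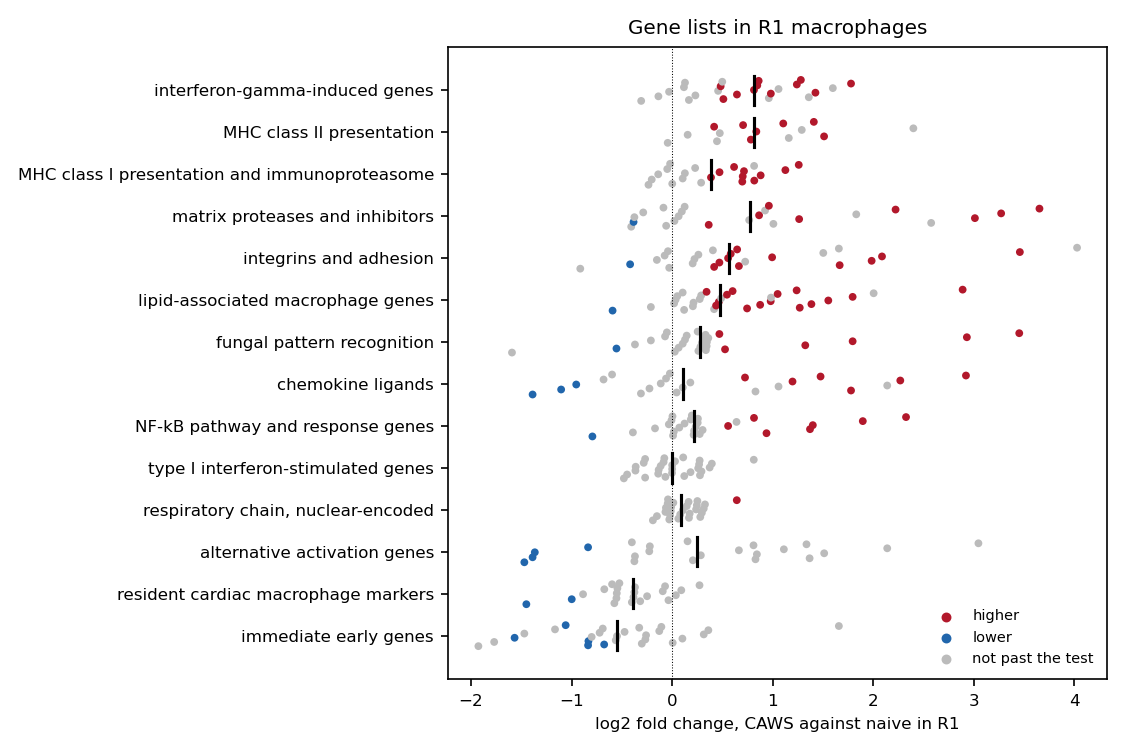
Log2 fold changes (CAWS over naive in R1) of the tested members of 14 gene lists, 1 point a gene, coloured by whether the gene passed adjusted p under 0.05; the black bar is the list's median, and genes with no count in naive R1 are not drawn but enter the median at their bound. The medians run from -0.55 (immediate early genes) to 0.81 (MHC class II presentation and interferon-gamma-induced genes).

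Chemokine ligands changed in both directions, with 7 of 23 higher and 3 lower (median 0.11), and 4 rose and 2 fell without CAWS library 2. Ccl8, a monocyte and lymphocyte attractant, had 10.5, 18.1 and 28.1 CPM in naive and 77.2, 95.8 and 96.3 CPM in CAWS libraries (2.27 ± 0.33, adjusted p = 0.000296). Cxcl16, the membrane-bound ligand of Cxcr6, had 288, 294 and 248 CPM against 456, 453 and 463 CPM (0.72 ± 0.10, adjusted p = 7.3e-05). The neutrophil attractant Cxcl3 had no count in naive R1 and 5.52, 2.67 and 2.13 CPM in CAWS R1, at least 58.9-fold higher. Ccl2, the ligand of Ccr2, went the other way, with 36.2, 37.6 and 35.8 CPM in naive and 16.1, 21.1 and 13.9 CPM in CAWS libraries (-1.10 ± 0.21, adjusted p = 0.00227). Ccl7, another Ccr2 ligand, had 32.6, 48.9 and 32.2 CPM against 15.2, 23.5 and 20.1 CPM (-0.95 ± 0.21, adjusted p = 0.00434). None of these 5 ligands overlapped between groups, which the naming rule required for Ccl8 and Ccl2. Of the 13275 genes tested, 3788 had no overlap either. The Ccr2 ligands Ccl2 and Ccl7 were thus lower where Ccr2 RNA was higher. Among chemoattractant receptors, 4 of 19 rose and 0 fell, and 3 or 4 rose with 1 library left out. Besides Ccr2 and Cxcr4, the receptor of Cxcl12 (0.79 ± 0.19, adjusted p = 0.0138, lost without CAWS library 3 at 0.071 or naive library 3 at 0.0737), they were the formyl peptide receptors Fpr1 (9.22 ± 2.37 to 23.1 ± 4.26 CPM) and Fpr2 (10.1 ± 1.99 to 27.4 ± 3.76 CPM, SD, n = 3), which rose by 1.33 ± 0.20 and 1.43 ± 0.18.

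CAWS is a fungal extract, and genes of fungal recognition moved unevenly. Of 27 fungal recognition genes, 6 rose and 1 fell (median 0.28), and 5 to 7 rose with 1 library left out. Clec4e (Mincle), a lectin for fungal glycolipids, had 2.62, 1.93 and 1.54 CPM in naive and 15.2, 22.4 and 10.4 CPM in CAWS libraries (2.93 ± 0.28, adjusted p = 6.21e-07), and its partner Clec4d rose by 1.32 ± 0.27 (adjusted p = 0.00404). Clec7a (dectin-1), the beta-glucan receptor, had 360, 367 and 340 CPM against 504, 466 and 400 CPM and did not pass (0.36 ± 0.12, adjusted p = 0.0713), though it did with only the compared groups (0.0183) and with the replicate block (0.038). Clec4n (dectin-2), the receptor for fungal mannan, did not pass either (0.35 ± 0.14, adjusted p = 0.146). It passed in limma voom (0.0211) and in a fit of the 2 groups alone (0.0428). Card9, the adaptor below these lectins, overlapped between the groups (24.9 ± 2.73 and 31.4 ± 7.20 CPM, SD, n = 3; adjusted p = 0.159) and passed without CAWS library 3 (0.0277). The integrin chain Itgb2 and the kinase Prkcd rose by 0.47 ± 0.09 and 0.53 ± 0.11. The endotoxin receptor Tlr4 fell by 0.55 ± 0.14 on the log2 scale (adjusted p = 0.0121). Outside this list, the flagellin receptor Tlr5 had 81.5, 95.8 and 85.0 CPM against 50.9, 46.4 and 50.7 CPM (-0.83 ± 0.17, adjusted p = 0.0046).

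Of 27 NF-kB pathway and response genes, 7 rose and 1 fell (median 0.22), and 6 or 7 rose with 1 library left out. The kinase Ikbke had 2.08, 1.55 and 3.34 CPM in naive and 13, 11.4 and 10.1 CPM in CAWS libraries (2.33 ± 0.34, adjusted p = 0.000164), and the adaptor Traf1 had 8.31, 8.75 and 7.81 CPM against 23.9, 22.8 and 19.1 CPM (1.40 ± 0.19, adjusted p = 7.89e-05). Tnfaip2 and the adhesion molecule Icam1 rose by 0.94 ± 0.15 and 0.56 ± 0.11, and Marcksl1, which binds actin and calmodulin, fell by 0.79 ± 0.12 on the log2 scale. Il1rn, the natural antagonist of interleukin-1, had 4.95, 4.84 and 7.01 CPM against 20.2, 23.7 and 29.0 CPM (2.13 ± 0.20, adjusted p = 5.43e-07). In the complement list, 5 of 24 rose and 1 fell (median 0.01), and 4 or 5 rose and 0 to 2 fell with 1 library left out. The largest complement component rises were in the alternative pathway: C3, its central component, had 28.7, 29.4 and 19.2 CPM against 95.9, 125 and 96.5 CPM (2.03 ± 0.32, adjusted p = 0.000693), and Cfb, which forms the C3 convertase, had 19.2, 13.5 and 25.9 CPM against 71.3, 83.0 and 100 CPM (2.12 ± 0.29, adjusted p = 0.000153). C2, which serves the classical pathway, had 35.8, 36.4 and 48.0 CPM against 60.2, 64.0 and 52.7 CPM (0.56 ± 0.16, adjusted p = 0.0339), and the receptor chains Itgax and Itgb2 were the other rises. The C2 call was lost with the older fit (0.0968) and without CAWS library 1 (0.0974) or 2 (0.145) or naive library 1 (0.146) or 2 (0.157).

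Slamf7, a receptor of activated macrophages, had 17, 24.8 and 15.8 CPM in naive and 78.8, 87.7 and 76.5 CPM in CAWS libraries (2.08 ± 0.19, adjusted p = 5.03e-07). The scavenger receptor Marco had 2.42, 0.993 and 2.00 CPM against 7.57, 14.7 and 13.2 CPM (2.67 ± 0.39, adjusted p = 0.000164), and the cystine importer Slc7a11 rose by 2.69 ± 0.43 (adjusted p = 0.000385). Acod1, the enzyme that makes itaconate, was near 0 in naive (0.346, 0 and 0 CPM) and had 2.42, 5.28 and 4.01 CPM in CAWS libraries (4.76 ± 0.75, adjusted p = 0.000149), a size that moved to 9.03 without naive library 1. Zfas1, a host gene of small nucleolar RNAs, had 5.0, 6.08 and 3.74 CPM against 20.6, 31.8 and 27.0 CPM (2.41 ± 0.38, adjusted p = 0.000504). Zfas1 overlaps Znfx1 on the other strand, and reads of the pair cannot be told apart without the strand setting. It was among 5 of 14 tested snoRNA host genes that rose, a family grouped after its values were seen, and 2 to 4 rose with 1 library left out (2 without naive library 1, 3 without CAWS library 3). The others were Gas5 (0.95 ± 0.22, adjusted p = 0.00852), Snhg5 (1.51 ± 0.35, adjusted p = 0.00905), Snhg12 (1.34 ± 0.34, adjusted p = 0.0168) and Snhg16 (1.55 ± 0.39, adjusted p = 0.0138). The Gas5 call was lost without naive library 2 (0.0597) and the Snhg5 call without CAWS library 3 (0.0702) or naive library 1 (0.0609). The Snhg12 call was lost without CAWS library 2 (0.0579) or 3 (0.0595) or naive library 1 (0.102) or 3 (0.0522), and the Snhg16 call with only the compared groups (0.0568) and without CAWS library 1 (0.0866) or naive library 1 (0.0856).

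By change in mean CPM, the largest rises were in abundant genes with small folds. The lysozyme Lyz2 had 10740, 12220 and 10880 CPM in naive and 15790, 17630 and 15480 CPM in CAWS libraries (0.53 ± 0.16, adjusted p = 0.0414). Per length, Lyz2 stood below Apoe in naive R1 (10670 against 19260 RPKM) and above it in CAWS R1 (15420 against 12770 RPKM). The cathepsin Ctsb (7026 ± 263 to 8907 ± 301 CPM), the saposin precursor Psap (5447 ± 443 to 6991 ± 136 CPM) and the iron-storage chain Fth1 (2476 ± 87.3 to 3370 ± 118 CPM, SD, n = 3) rose by 0.34 ± 0.09, 0.36 ± 0.09 and 0.45 ± 0.10. These 4 calls were fragile. The Lyz2 call was lost whichever library was left out (0.0724 to 0.184), and the Ctsb call without CAWS library 1 (0.0966) or 2 (0.0758) or naive library 1 (0.08), 2 (0.0608) or 3 (0.107). The Psap call was lost without CAWS library 2 (0.0578) or naive library 3 (0.084), and the Fth1 call without CAWS library 1 (0.0563) or naive library 1 (0.0586) or 2 (0.0661). The pore-forming Mpeg1 (1463 ± 211 to 2659 ± 237 CPM; 0.86 ± 0.11, adjusted p = 2.42e-05) and the elongation factor Eef2 (2150 ± 92.7 to 3381 ± 47.5 CPM; 0.65 ± 0.08, adjusted p = 3.29e-05) held in the 15 alternatives run.

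Other large falls in mean CPM, besides Apoe, Lyve1 and Mgl2, were in secreted and surface proteins of macrophages. The iron carrier Trf fell from 4334 ± 120 to 3180 ± 530 CPM, the Fc receptor-like Fcrls from 1608 ± 87.1 to 1086 ± 107 CPM and Igfbp4, which binds insulin-like growth factors, from 1062 ± 52.9 to 688 ± 95.3 CPM (SD, n = 3). The matrix protein Tgfbi fell from 1864 ± 94.7 to 1494 ± 14.5 CPM and the organic anion carrier Slco2b1 from 1028 ± 84.3 to 748 ± 49.3 CPM. Adjusted p ran from 0.00756 (Igfbp4) to 0.0423 (Slco2b1), and no group overlapped. The Trf call was lost without CAWS library 2 (0.159) or 3 (0.118) or naive library 1 (0.0888), 2 (0.0793) or 3 (0.0747), and the Igfbp4 call without CAWS library 2 (0.0502). The Fcrls call was lost with the older fit (0.119) and without CAWS library 2 (0.105) or 3 (0.071) or naive library 1 (0.066) or 2 (0.084). The Tgfbi call was lost without CAWS library 1 (0.0781), 2 (0.0883) or 3 (0.0755) or naive library 2 (0.124) or 3 (0.0693), and the Slco2b1 call whichever library was left out (0.0565 to 0.163). The lysosomal sulfatase Arsb fell from 361, 433 and 436 CPM to 206, 194 and 195 CPM (-1.05 ± 0.12, adjusted p = 1.18e-05) and kept its call in the 15 alternatives.

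Immediate early genes, which cells switch on within minutes of a stimulus and which tissue handling can induce, fell in 5 of 26, Klf4 among them, and rose in 0 (median -0.55). With 1 library left out, 3 to 6 fell, 3 without CAWS library 3 or naive library 3. Klf2, a shear-responsive factor that restrains macrophage activation, had 514, 443 and 579 CPM in naive and 290, 233 and 214 CPM in CAWS libraries (-1.06 ± 0.15, adjusted p = 0.000109). The GTPase Rhob had 496, 551 and 545 CPM against 356, 318 and 323 CPM (-0.68 ± 0.10, adjusted p = 0.000229). Ccn1, a matrix signalling protein, had 23.2, 15.5 and 18.9 CPM against 6.52, 4.76 and 8.12 CPM (-1.57 ± 0.28, adjusted p = 0.00146), the largest fall under the naming rule. Ier2 fell by 0.83 ± 0.19 on the log2 scale (adjusted p = 0.00926), a call lost without CAWS library 3 (0.0547) or naive library 3 (0.0609). The heat-inducible co-chaperone Dnajb1 fell too, from 78.3, 68.5 and 75.8 CPM to 32.2, 34.3 and 38.7 CPM (-1.08 ± 0.15, adjusted p = 0.000105). The time from heart to lysis is not given for the libraries, and its part in these falls was not tested.

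Some splicing regulators fell, in families grouped after their values were seen. Of 10 tested SR proteins, 6 fell, 4 did not pass and 0 rose (median -0.51), and both Tra2 genes fell. With 1 library left out, 5 to 7 SR genes fell. Tra2a, which binds GAA-rich exonic enhancers, had 42.7, 42.0 and 37.5 CPM in naive and 16.8, 18.8 and 19.8 CPM in CAWS libraries (-1.14 ± 0.14, adjusted p = 2.39e-05). Its paralogue Tra2b had 58.9, 55.4 and 61.4 CPM against 28.8, 30.9 and 33.8 CPM (-0.91 ± 0.12, adjusted p = 3.56e-05), and Srsf7 had 49.0, 53.6 and 55.0 CPM against 20.4, 27.6 and 24.0 CPM (-1.13 ± 0.18, adjusted p = 0.000307). The groups stood apart in each, which the naming rule required for Tra2a and Srsf7. Srsf1, Srsf2, Srsf3 and Srsf10 fell by 0.56 ± 0.11, 0.72 ± 0.11, 0.83 ± 0.13 and 0.83 ± 0.14 on the log2 scale. Among 21 hnRNP genes 3 fell and 0 rose, at -0.50 ± 0.10 for Hnrnph1, -0.49 ± 0.09 for Hnrnpab and -0.56 ± 0.13 for Hnrnpa3 (adjusted p = 0.00186, 0.000986 and 0.0106, the last 0.0683 without naive library 3). Other falls under the rule were the cyclin Ccnd2 (74.5 ± 10.6 to 34.3 ± 4.81 CPM; -1.12 ± 0.16), Mrvi1, which controls calcium release (76.8 ± 11.4 to 35.6 ± 4.08 CPM; -1.11 ± 0.14), the orphan receptor Gprc5b (17.1 ± 5.62 to 6.64 ± 1.31 CPM; -1.35 ± 0.25) and the endothelial and myeloid receptor Cd300lg (23.7 ± 7.03 to 11.3 ± 1.46 CPM, SD, n = 3; -1.06 ± 0.22). Endothelial markers fell in 2 of 14, the secreted Egfl7 (-1.96 ± 0.34) and the water channel Aqp1 (-1.0 ± 0.18), and rose in 3, the adhesion molecule Pecam1 (1.98 ± 0.36), the clotting factor Vwf (1.01 ± 0.26) and the lipid carrier Fabp4 (1.55 ± 0.31, or 2.14 without naive library 1). The Vwf call (adjusted p = 0.0183) was lost without CAWS library 2 (0.0913) or naive library 1 (0.0678) or 2 (0.113). The list summed to 163 to 179 CPM in naive and 180 to 186 CPM in CAWS libraries.

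The R1 response was set against that of the MHC-II-high populations, with the difference itself tested. Each pool was divided into R1, R2 and R3, per the series design, so the 3 responses share animals, which the test of the difference does not use. In R2, 901 genes (6.79%) were higher and 464 (3.5%) lower in CAWS, and 445 of the rises and 178 of the falls were also called in R1 (55.2% and 46.7% of R1's, 49.4% and 38.4% of R2's). In R3, 890 genes (6.7%) were higher and 1101 (8.29%) lower, and 331 rises and 194 falls were also called in R1 (41.1% and 50.9% of R1's, 37.2% and 17.6% of R3's). Called in all 3 populations were 249 rises and 124 falls. Tra2a is an example, at -1.14, -1.16 and -1.13 in R1, R2 and R3. The response differed from R2 in 7 genes (0.0527%; 702 at unadjusted p under 0.05) and from R3 in 300 (2.26%), of which 13 were higher and 287 lower in R3. Of the 287, 101 were genes that rose in R1, 14 fell in R1 and 172 did not pass in R1.

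Several of the largest R1 rises were among the 287. Itgax changed by 3.46 in R1 and -0.10 in R3 (difference -3.56 ± 0.35, adjusted p = 7.36e-06), and Mmp12 by 3.65 and 0.15 (difference -3.50 ± 0.36, adjusted p = 1.04e-05). Ccr2 changed by 3.62 and 0.62 (difference -3.00 ± 0.44, adjusted p = 0.000691) and Adam8 by 3.01 and 0.65 (difference -2.36 ± 0.30, adjusted p = 6.22e-05). Naive R3 was already high in these genes, with means of 233 CPM for Itgax, 182 for Mmp12, 2390 for Ccr2 and 42.1 for Adam8, against 8.27, 9.19, 6.58 and 3.44 CPM in naive R1. Slamf7, Mmp14, Cd9 and Ciita also had a lower response in R3 (differences -1.83 ± 0.26, -1.63 ± 0.25, -1.56 ± 0.17 and -1.31 ± 0.25). Among falls, Mrvi1 changed by -1.11 in R1 and -2.58 in R3 (difference -1.48 ± 0.22) and Slco2b1 by -0.46 and -1.46 (difference -1.0 ± 0.20). The Slco2b1 difference was lost with the older fit (0.0814). Timd4 changed by -1.0 in R1 and -2.95 in R3 (difference -1.95 ± 0.41, adjusted p = 0.0112), a difference lost with only the compared groups (0.0993) and without CAWS R3 library 2 (0.054). For Lyve1 (-1.45 and -3.13) the difference missed the threshold (-1.69 ± 0.45, adjusted p = 0.0639).

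Cadm1, an adhesion molecule, responded differently in R1 than in R2 and in R3, while R2 against R3 was not tested. It had 54.5, 52.3 and 53.1 CPM in naive and 69.6, 86.8 and 83.4 CPM in CAWS R1, a rise of 0.58 ± 0.12 (adjusted p = 0.00406), while it changed by -0.53 in R2 and -1.53 in R3. The differences were -1.11 ± 0.17 (adjusted p = 0.00839) and -2.11 ± 0.17 (adjusted p = 1.72e-07), and the first was lost without CAWS R2 library 2 (0.0528). Mpeg1 rose in R1 alone of the 3 tests (0.86, 0.03 and 0.06), with differences of -0.83 ± 0.15 (adjusted p = 0.026) and -0.80 ± 0.15 (adjusted p = 0.00287). Anxa1 and Anxa2, annexins that bind membranes, rose more in R2, Anxa1 by 0.75 in R1 and 1.93 in R2 (difference 1.19 ± 0.17, adjusted p = 0.00579) and Anxa2 by 0.60 and 1.53 (difference 0.93 ± 0.17, adjusted p = 0.026). The heparan sulfate cutter Hpse rose by 0.67 in R1, 2.31 in R2 and 1.95 in R3 (differences 1.64 ± 0.29 and 1.27 ± 0.24), its R1 groups overlapping (9.60, 10.1 and 14.2 against 18.7, 21.6 and 13.5 CPM). The Hpse rise in R1 was lost without CAWS library 1 (0.0707), CAWS library 2 (0.138), naive library 1 (0.111) or naive library 2 (0.0998). Cd300lg fell by 1.06 on the log2 scale in R1 and rose by 0.87 in R2 (difference 1.93 ± 0.32, adjusted p = 0.0188). The Anxa1 difference from R2 held in the 21 alternatives run, while others rested on single libraries. The Cd300lg difference was lost without CAWS R2 library 2, naive R2 library 1, 2 or 3 or naive R1 library 3 (0.0507 to 0.0828). The Mpeg1 difference from R2 was lost without CAWS R2 library 1, 2 or 3, naive R2 library 1 or 2, CAWS R1 library 1 or 2 or naive R1 library 3 (0.0506 to 0.138). The Hpse difference from R2 was lost without CAWS R2 library 2 or 3, naive R2 library 1 or 3, CAWS R1 library 1 or naive R1 library 3 (0.0506 to 0.12). The Anxa2 difference from R2 was lost with the stricter filter (0.0545) and without CAWS R2 library 2, CAWS R1 library 1 or 3, or any naive R1 or R2 library (0.054 to 0.157).

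Other large differences from R3 included genes that moved in R3 more than in R1. Dok2 and Klrb1b moved more in R1, and Tgfbi moved by similar sizes in opposite directions. The sulfotransferase Hs3st3a1 (0.57 in R1, -2.46 in R3), the filament Nes (0.20 and -2.04) and the chemokine Cxcl14 (0.11 and -2.10) differed by -3.03 ± 0.33, -2.23 ± 0.27 and -2.21 ± 0.29. None of these 3 passed in R1, with R1 means of 9.73 and 14.6 CPM, 99.5 and 114 CPM, and 13.8 and 15 CPM in naive and CAWS. In the other direction, Ms4a4a (0.05 and 1.36) and Nxpe5 (0.58 and 1.45) differed by 1.31 ± 0.20 and 0.87 ± 0.21, and Clec4n (0.35 and 1.15), Dok2 (-0.59 and 0.12) and Tgfbi (-0.32 and 0.28) by 0.80 ± 0.21, 0.71 ± 0.16 and 0.60 ± 0.13. The Nxpe5 difference was lost without CAWS R3 library 2 (0.0873), naive R3 library 1 (0.0752) or 2 (0.0746) or naive R1 library 1 (0.0598) or 3 (0.052), and the Tgfbi difference without CAWS R3 library 2 (0.0505). The Clec4n difference was lost with the older fit (0.0602), the pool block (0.0568) and without CAWS R3 library 1 or 2, naive R3 library 1 or 2, CAWS R1 library 1 or 3 or any naive R1 library (0.0573 to 0.129). The NK receptor Klrb1b had 0.742, 0 and 0.534 CPM in naive and 1.95, 4.35 and 0.558 CPM in CAWS R1, with overlapping groups. Its log2 fold change in R1 was 2.29, and the difference in R3 was -2.97 ± 0.69 (adjusted p = 0.017). That difference was lost with limma voom (0.221), in a fit of the compared groups alone (0.0783) and without CAWS R1 library 2 (0.163) or naive R1 library 2 (0.0838) or 3 (0.0584). Dok2, an adaptor that dampens receptor signalling, had 200, 194 and 252 CPM in naive and 138, 137 and 156 CPM in CAWS R1 (adjusted p = 0.00198).

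**Figure D5:**
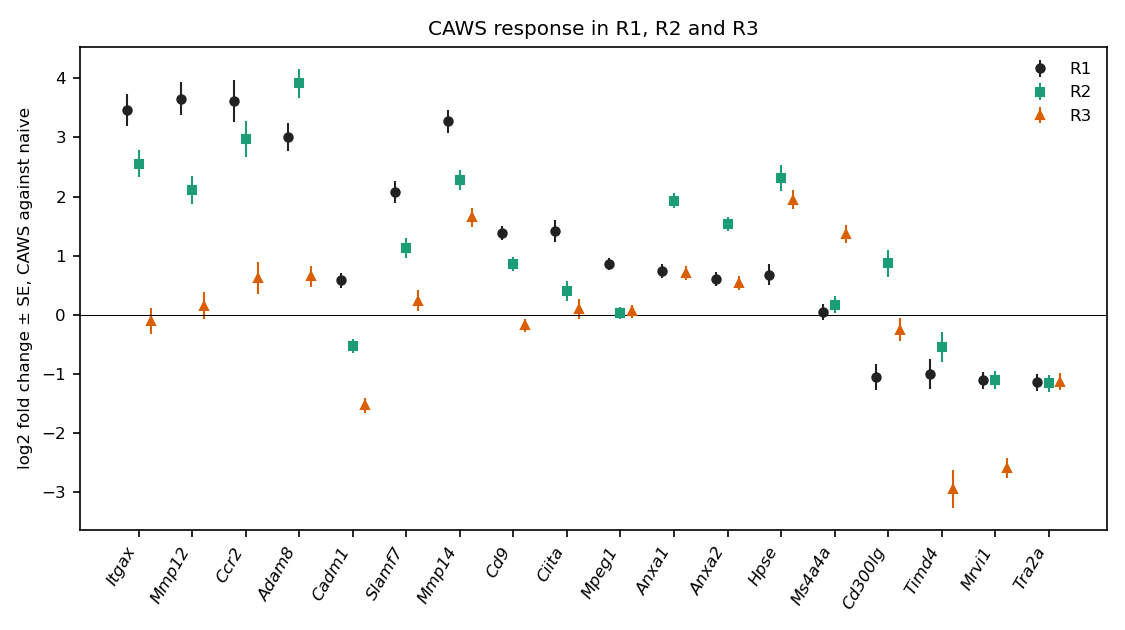
CAWS response (log2 fold change ± SE, vertical axis) of 18 genes (horizontal axis) in R1, R2 and R3, 1 point a population. Itgax, Mmp12 and Ccr2 lie near 3.5 in R1 (3.46, 3.65 and 3.62) and between -0.10 and 0.62 in R3, while Tra2a lies near -1.1 in all 3 populations.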

How the data were processed

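RNA of freshly sorted cells was isolated with the RNeasyPlus Mini kit and sequenced from TruSeq RNA libraries, per the labels' protocols. The values used are the deposited counts of reads per gene, unnormalised, made with featureCounts on mm10, per the submitters' processing notes. Neither the aligner nor the annotation, the counting strand or the featureCounts version is stated in them. Gene length stands beside each count, per the file headers. The per-sample counts equalled the combined table for 21 of 21 libraries. RefSeq's table of GRCm38.p6 gave a symbol to 25275 of 27179 gene IDs.

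Counts were tested with the two-sided robust quasi-likelihood test of edgeR 4.0.16 (R 4.3.3), after filterByExpr (minimum count 10, minimum total count 15) and TMM scaling. There was 1 mean per group, the spread was shared over all 21 libraries with 14 residual degrees of freedom, and p-values were adjusted by Benjamini-Hochberg over all 13275 genes (threshold 0.05). Every adjusted p in the text comes from this test unless an alternative is named. A difference between responses is a contrast in the same fit. Replicates are pools of mice, so p-values rest on the spread between pools, taken over all 21 libraries and not from R1 alone. Libraries of R1, R2 and R3 that share a pool enter that spread as independent. Same-numbered naive and CAWS R1 libraries did not deviate together (correlations -0.0268, 0.0167 and 0.00951), so numbers were not read as pairs across treatments. Within a treatment, same-numbered R1 and R2 libraries had correlations of 0.0332 to 0.0967 (naive) and 0.0907 to 0.14 (CAWS). Differently numbered ones had -0.0704 to 0.0237 and -0.102 to -0.0158. For R1 and R3 the same-numbered values were 0.0162 to 0.103 and the others -0.0797 to 0.0505. Between R1 replicates, chi-square over its degrees of freedom was 10.9 to 19.9, so over all genes together counting error was small beside the spread between replicates. The ratio is 1 sum over genes and does not show this for genes at a few reads. Alternatives were DESeq2 1.42.0, limma 3.58.1 voom with sample weights, RLE scaling, other filters, the older edgeR fit, only the compared groups, replicate blocks and libraries left out.

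The comparison, the gene lists and the tests were chosen with earlier results of these data known. Named are the 15 largest rises and falls by fold where the higher group had a mean log2 CPM of 4 or more, with no overlap between groups and no unnamed gene models, the 10 largest in each direction by CPM, the sorting and lineage genes, up to 8 of the largest differences in response each way, and, of the lists described, up to 5 members with the smallest p. Members of small counts were added after their values were seen. Some genes the rule names are not reported here.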

Additional observations from a re-analysis of the deposited data

Results flagged for a closer look

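The following genes had a CAWS response that differed between R1 and another population in the test of the difference itself, given as the other population's log2 fold change minus that of R1. Lower in R3 than in R1 were Itgax (-3.56), Mmp12 (-3.50), Hs3st3a1 (-3.03), Ccr2 (-3.00), Klrb1b (-2.97), Il7r (-2.56), Adam8 (-2.36), Nes (-2.23), Cxcl14 (-2.21) and Cadm1 (-2.11). Next were Timd4 (-1.95), Slamf7 (-1.83), C2 (-1.80), Cd163 (-1.71), Mmp14 (-1.63), Cd9 (-1.56), Mrvi1 (-1.48), Actc1 (-1.33), Ciita (-1.31), Spn (-1.13), Slco2b1 (-1.0) and Mpeg1 (-0.80). For C2 the sign of the response differed too: it rose by 0.56 in R1 and fell by 1.24 on the log2 scale in R3. Higher in R3 than in R1 were Ms4a4a (1.31), Hpse (1.27), Nxpe5 (0.87), Clec4n (0.80), Dok2 (0.71) and Tgfbi (0.60). The Il7r difference missed the threshold in a fit of the 4 groups alone (adjusted p = 0.0763) and without CAWS R1 replicate 2 (0.0633) or naive R1 replicate 3 (0.0814). The Spn difference missed it in that fit (0.0567) and without CAWS R3 replicate 1 (0.0722) or 2 (0.0702), naive R3 replicate 2 (0.0518), CAWS R1 replicate 2 (0.0727) or naive R1 replicate 3 (0.0691). The Actc1 difference rested on single libraries: it was lost without CAWS R3 replicate 1 (adjusted p = 0.132) or 2 (0.0702), naive R3 replicate 1 (0.0909), CAWS R1 replicate 1 (0.0753) or 3 (0.0721) or naive R1 replicate 1 (0.0584), 2 (0.106) or 3 (0.0607).

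Against R2, the response was higher in R2 for Cd300lg (1.93), Hpse (1.64), Anxa1 (1.19) and Anxa2 (0.93), and lower for Cadm1 (-1.11) and Mpeg1 (-0.83).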

How the results depend on the processing

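The comparison of CAWS against naive in R1 was repeated in 15 alternatives. Of 135 named genes past the test, 74 kept the call in all 15 and 0 changed sign. The count of 1187 genes ran from 673 to 893 with 1 library left out and was 673, 698 and 723 without CAWS R1 replicate 2, naive R1 replicate 2 and naive R1 replicate 3. Without both replicates numbered 2, an alternative chosen after seeing the data, it was 379, and the calls of Lyve1 (adjusted p = 0.064), Cd300lg (0.0853) and Cadm1 (0.0986) were among those lost. Each of these has fewer samples by construction. The replicate block over all libraries gave 1398 genes and ended no named call in R1. It added calls including Clec7a (0.36, adjusted p = 0.038), Arg1 (adjusted p = 0.00969) and H2-Aa (adjusted p = 0.0236). The pool block ended the difference of Clec4n from R3 (adjusted p = 0.0568). For the other changes of count given here, the cause was not tested.

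The 7 genes that differed from R2 were 57 with DESeq2, 14 with no filter, 12 with the older fit, 22 with limma voom, 33 with only the compared groups, 23 with the replicate block and 15 with the pool block, and 1 to 11 with a library left out. The 300 genes that differed from R3 were 479 with DESeq2, 359 with the replicate block, 393 with the pool block and 180 to 299 with a library left out, the lowest being 182 and 180 without CAWS R3 replicates 1 and 2 and 187 without naive R1 replicate 3. Uncalled genes that changed sign in R1 were Cx3cr1 (-0.0079 without CAWS R1 replicate 2, -0.075 without naive R1 replicate 3, at most 0.115), Ms4a4a (-0.0055 without CAWS R1 replicate 3, -0.040 without naive R1 replicate 3, at most 0.102), Cxcl14 (-0.044 without naive R1 replicate 3, at most 0.245) and Ly6c2 (-0.024 without CAWS R1 replicate 2, at most 2.21). Genes near 0 counts in naive R1, such as Saa3, have folds whose size depth limits. The floor of 3 counts over the naive group is 0.0585 CPM.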

Other observations

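Metabolic lists moved in part. Over all tested genes 6.07% rose and 2.87% fell. List counts of 1 or 2 here are close to these shares, and no list was tested against them. Of 26 sterol synthesis and uptake genes, 5 rose and 0 fell (median 0.25), and 3 rose without CAWS library 2 or 3 or naive library 2. Among them the desaturase Scd2 had 9.30, 6.89 and 10 CPM in naive and 20.1, 32.9 and 17.8 CPM in CAWS R1 (1.43 ± 0.25, adjusted p = 0.000849), highest in CAWS library 2. Glycolysis and hypoxia genes rose in 6 of 22 and fell in 0 (median 0.14), and in 2 to 4 with 1 library left out, 2 without CAWS library 2 or naive library 1 and 3 without naive library 2 or 3. The lactate exporter Slc16a3 had 21.9, 25.9 and 24.2 CPM against 35.9, 60.4 and 37.6 CPM (0.89 ± 0.19, adjusted p = 0.00481). Of 26 nuclear-encoded subunits of the respiratory chain, Uqcrfs1 (0.64) rose and 0 fell (median 0.09), and lost its call without CAWS library 2 (0.0782), naive library 1 (0.0932) or naive library 3 (0.0654). Lysosomal genes rose in 7 of 28 and fell in 0 (median 0.18), and in 2 to 5 with 1 library left out, 2 without CAWS library 2 or naive library 1 or 3, 3 without naive library 2 and 4 without CAWS library 1. Of 30 cell cycle genes, 2 rose, Ccnb2 (1.18) and Kif20a (1.14), and 2 fell, Mcm2 (-0.54) and Mcm3 (-0.41), while without CAWS library 2 the counts were 0 and 0. Ccnb2 (adjusted p = 0.0307) kept its call without CAWS library 1 and lost it without each other library (0.0518 to 0.112), with DESeq2 (0.0943), no filter (0.0841) and the older fit (0.0857). Kif20a (0.0153) lost it without naive library 2 (0.0864) as well. Mcm2 (0.047) kept its call without naive library 2 and lost it without each other library (0.0586 to 0.132) and with the older fit (0.0545). Mcm3 (0.0407) lost it with no filter (0.0513) and without CAWS library 1 (0.114) or 2 (0.105) or naive library 1 (0.0826) or 3 (0.11). The 25 genes of the unfolded protein response and chaperones held 1 fall, Dnajb1. The members of these small counts were named after their values were seen.

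Cytosolic ribosomal protein genes, grouped after their values were seen, had a median of 0.45 with 74 of 83 values above 0, although 2 passed the test. Those were Rpl10a (3.23 ± 0.40 to 8.43 ± 2.22 CPM; adjusted p = 0.00673, and 0.0515 without CAWS library 2) and Rpl12 (2.68 ± 0.30 to 6.70 ± 1.19 CPM, SD, n = 3; adjusted p = 0.0165, and 0.0802 without CAWS library 2, 0.069 without naive library 2 and 0.0654 without naive library 3). Reads of ribosomal protein genes can be shared with their pseudogenes, so the values are uncertain.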
